A study of Oryza sativa with 8 samples.

Results

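The genes described here are rice loci whose transcripts held their level in wild-type seedlings under dehydration but were lower in an SDG708 RNAi line given the same treatment. They were chosen on the measured values themselves. A gene was taken when its mean was at least 2 FPKM (a level corrected for gene length and library depth) in both wild-type groups, when neither of the treated and untreated wild-type means was under 0.8 of the other, and when its highest RNAi library was at most 0.7 times its lowest of the 5 wild-type libraries. Of 34119 loci in the table, 5845 met the conditions on wild-type and are called PEG-steady below, and 112 of these met the condition on the RNAi line as well.

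Transcripts were measured in 8 polyA-selected libraries from whole seedlings 14 days old. The 3 RNAi libraries (708RNAi_PEG, written RNAi_PEG below) came from the SDG708-knockdown line 708Ri-1-1 after 3 h in 20% PEG8000, a polymer that draws water from the roots. The 2 WT_PEG libraries came from wild-type, named NIP in the series, after the same 3 h in 20% PEG8000, and the 3 WT_control libraries from wild-type with no treatment. All seedlings were raised for 7 days on plates and then 7 days in liquid, under days of 10 h at 30 °C and nights of 14 h at 28 °C. The RNAi data come from 1 line, and the sources used here do not give the promoter that drives the RNAi construct. No untreated RNAi library was analysed here, so a difference that is always present in this line and one that appears under PEG cannot be told apart. The row for SDG708 itself was not analysed here, so the knockdown was not checked.

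SET-domain proteins such as SDG708 transfer methyl groups to lysines of histones, the proteins around which DNA is wound. At some of these lysines, methylation over the body of a gene commonly accompanies active transcription. In rice the SDG family is known for its part in flowering and hormone responses. RNAi lowers a transcript through small RNAs cut from a double-stranded copy of it. Dehydration with PEG changes a large share of the seedling transcriptome within hours.

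Depth allowed all 112 genes to be counted in every library. The FPKM values stepped in multiples of 1 read, and the recovered reads numbered 30817966 to 49707844 per library. Over the 3 RNAi libraries together the 112 genes held between 44 and 212255 reads each, with a median of 1227. The median was 2909.5 for the other 5674 PEG-steady genes, which met neither this condition nor its mirror image. The rule required low RNAi values of the 112, so their choice bears on this difference. WT_control replicate 3 stood apart from replicates 1 and 2, with a mean chi-square per gene of 18.6 and 15.8 against 2.42 between those 2. RNAi_PEG replicate 2 stood apart to a lesser degree, with 9.11 and 7.91 against 4.64 between RNAi_PEG replicates 1 and 3. The labels do not say that replicates were separate plants, and the p-values behind the calls below reflect spread among libraries that may be technical.

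The typical member of the group was at about 0.5 of its wild-type level. The ratio of mean RNAi_PEG to mean WT_PEG had a median of 0.513, with quartiles of 0.439 and 0.587, a lowest value of 0.0579 and a highest of 0.678. Put as a fold, the transcripts were lower by 1.95-fold at the median and by 17.3-fold at the extreme. Only 6 genes had a ratio of at most 0.25, 44 had a ratio above 0.25 and up to 0.5, and the remaining 62 lay above 0.5. These values describe the choice of the genes and carry no test.

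Each library gave the same picture over the 112 genes. Relative to the mean of the 5 wild-type libraries, the median gene stood at 0.51, 0.501 and 0.513 in RNAi_PEG replicates 1, 2 and 3. In WT_PEG replicates 1 and 2 it stood at 0.965 and 0.972, and in the untreated libraries at 0.993, 1.003 and 1.044. The highest value of any gene in an RNAi library was 0.655, while the lowest in any wild-type library was 0.788, so the RNAi and wild-type values did not overlap across the whole group. The rule itself sets these 2 ranges apart.

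**Figure D1:**
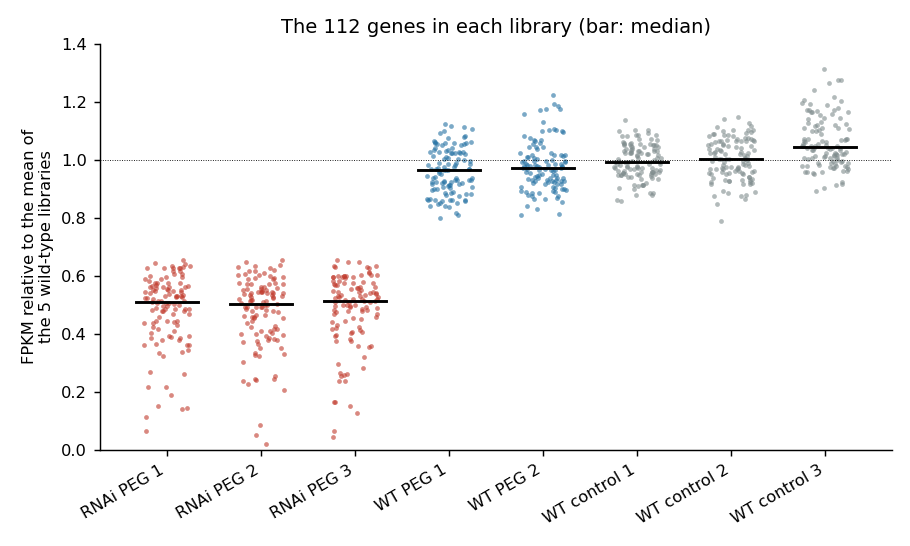
FPKM of each of the 112 genes in each library, divided by that gene's mean over the 5 wild-type libraries. Points are genes, shifted sideways at random to separate them, and bars are medians. The 3 RNAi libraries have medians of 0.501 to 0.513, and the 5 wild-type libraries have medians of 0.965 to 1.044.

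By limma on log2(FPKM + 1) across all 20943 tested genes, all 112 were called lower in RNAi_PEG than in WT_PEG, where 16.4% of tested genes were called lower. All 112 were also called lower in RNAi_PEG than in WT_control, against 40.0% of tested genes. In every member all 3 RNAi libraries lay below all 5 wild-type libraries, as did 18.5% of tested genes. The rule used these libraries, so nothing is read from these counts. Among all 5845 PEG-steady genes, 933 (16.0%) were called lower in RNAi_PEG than in WT_PEG. In the authors' deposited table the p-value for RNAi_PEG against WT_PEG was under 0.05 for 112 of the 112. It was under 0.05 for 1739 of the other 5674 PEG-steady genes (30.6%). The rule used the same libraries, so nothing is read from this count either.

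Steadiness under PEG was loose in part of the group. The ratio of WT_PEG to WT_control had a median of 0.934, from 0.801 to 1.206, and 74 of the 112 genes (66.1%) had the lower mean under PEG. Of the other PEG-steady genes 45.5% did, and of the 59 PEG-steady genes that met the mirrored condition, with the lowest RNAi library at least as far above the highest wild-type library, 35.6% did. Limma called 32 of the 112 lower and 12 higher in WT_PEG than in WT_control, and left 68 uncalled. Over all tested genes 36.8% were called lower and 38.6% higher, but the rule limits the PEG ratio of the members. Among the other PEG-steady genes, which share that limit, 16.2% were called lower and 21.9% higher, against 28.6% and 10.7% of the members. This split rests on the scaling, since 61 were called lower and 0 higher with libraries scaled to total recovered reads, and 58 and 0 with quantile normalization. It also rests on single libraries, with 13 lower and 11 higher without WT_PEG replicate 1, 19 and 3 without WT_PEG replicate 2, 25 and 5 without WT_control replicate 1, 23 and 5 without WT_control replicate 2, and 27 and 17 without WT_control replicate 3. Over all tested genes, 9322 were called lower and 6496 higher with scaling to total recovered reads, and 8341 and 7472 with quantile normalization. The other PEG-steady genes were not counted under these alternatives, so the comparison with them holds for the main setting only. The lower limit of 0.8 ran through a populated stretch. The member nearest to it, LOC_Os11g03230, had a ratio of 0.801, and LOC_Os02g11640, which met the other conditions, was outside at 0.796. Between 0.8 and 0.85 there were 20 members, and 23 genes that met the other conditions lay between 0.75 and 0.8.

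**Figure D2:**
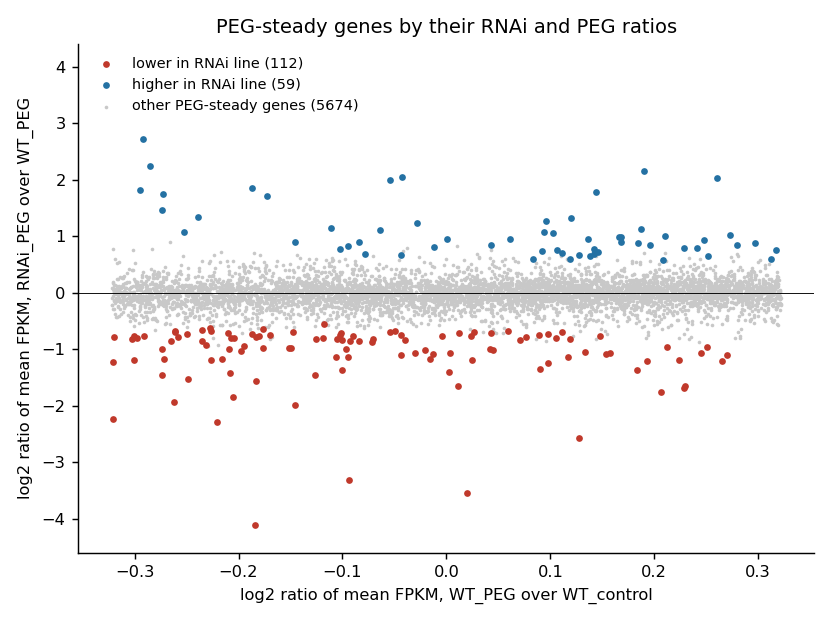
Each point is 1 of the 5845 PEG-steady genes. The horizontal axis is the log2 ratio of mean FPKM in WT_PEG over WT_control, and the vertical axis the log2 ratio in RNAi_PEG over WT_PEG. The 112 genes lower in the RNAi line lie below 0, the 59 genes of the mirrored condition lie above 0, and the other 5674 genes are in grey.

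Of the 8 members with the highest wild-type level 3 carry a name, and all 3 encode proteins of photosynthesis or photorespiration. Names came in part from gene lists that include leaf photosynthesis genes, so this is no statement about the unnamed members. LHCA4 (LOC_Os08g33820), an antenna protein that passes light energy to photosystem I, was the most abundant member. It had 1246, 1193 and 1260 FPKM in the RNAi libraries, against 2042 and 2179 FPKM in WT_PEG and 2530, 2549 and 2823 FPKM in WT_control. No RNAi library reached 0.7 of any wild-type library, and the wild-type groups themselves did not overlap. Its ratio of WT_PEG to WT_control, 0.801, was just inside the limit. The name LHCA4 rests on the gene list alone, because the reference table does not hold it.

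LIR1 (LOC_Os01g01340) encodes a light-regulated chloroplast protein that helps to hold ferredoxin-NADP reductase, the last enzyme of photosynthetic electron transport, at the thylakoid membrane. Its level was 211, 198 and 200.1 FPKM in the RNAi libraries, against 345 and 367 FPKM in WT_PEG and 370, 366 and 430 FPKM in WT_control. The 2 wild-type groups overlapped, and the RNAi libraries lay well below both, with a mean ratio of 0.57 to WT_PEG.

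GLO5 (LOC_Os07g05820) encodes a glycolate oxidase, the peroxisomal enzyme of photorespiration that oxidises the glycolate left after Rubisco has fixed oxygen. It was at 62.3, 59.9 and 60.7 FPKM in the RNAi libraries, against 105 and 109 FPKM in WT_PEG and 128, 130 and 136 FPKM in WT_control. All 3 groups were separate, with the RNAi libraries lowest and the untreated libraries highest. The ratio of RNAi_PEG to WT_PEG was 0.571, close to those of LHCA4 (0.584) and LIR1 (0.57).

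The other 5 of the 8 carry no name in the tables used. LOC_Os04g41560, second only to LHCA4 in wild-type level, had 231, 223 and 242 FPKM in the RNAi libraries, against 390 and 420 FPKM in WT_PEG and 413, 410 and 496 FPKM in WT_control. LOC_Os01g13480 had 64.7, 61.3 and 66.4 FPKM in the RNAi libraries, against 99.5 and 111 FPKM in WT_PEG and 105, 105 and 129 FPKM in WT_control. In both genes WT_control replicate 3 was the highest wild-type library and WT_PEG replicate 2 the next. LOC_Os02g01150 was at 64.7, 64.1 and 62.4 FPKM in the RNAi libraries, against 104 and 103 FPKM in WT_PEG and 95.0, 95.6 and 96.7 FPKM in WT_control. This gene was slightly higher in WT_PEG than in untreated seedlings, and its replicates lay close together in every group. LOC_Os02g57020 was at 41.8, 38.1 and 45.4 FPKM in the RNAi libraries, against 80.7 and 94.5 FPKM in WT_PEG and 85.3, 83.1 and 93.8 FPKM in WT_control. LOC_Os01g01660 was at 47.4, 47.5 and 47.0 FPKM in the RNAi libraries, against 83.7 and 80.0 FPKM in WT_PEG and 76.4, 73.9 and 82.6 FPKM in WT_control. Of the 8 most abundant members, LOC_Os02g57020 had the lowest ratio, 0.477, and the other 7 lay between 0.57 and 0.616.

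PIN5A (LOC_Os01g69070) was the one named member among the 12 with the lowest ratios. It belongs to the PIN family of auxin transporters, and its Arabidopsis relative PIN5 sits in the endoplasmic reticulum and moves auxin within the cell. It was at 0.625, 0.745 and 0.69 FPKM in the RNAi libraries, against 2.66 and 2.55 FPKM in WT_PEG and 3.01, 3.09 and 3.28 FPKM in WT_control. The mean was 3.8-fold lower in RNAi_PEG than in WT_PEG, on 157, 148 and 217 reads in the RNAi libraries. The 3 groups did not overlap.

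The steepest difference was that of LOC_Os11g47240. It had 0.381, 0.3 and 0.258 FPKM in the RNAi libraries, against 5.14 and 5.67 FPKM in WT_PEG and 6.11, 6.43 and 5.90 FPKM in WT_control, a 17.3-fold lower mean than in WT_PEG. The RNAi values rested on 53, 33 and 45 reads, so the gene was low there but detected in each library. LOC_Os06g38340 followed with 0.593, 0.448 and 0.337 FPKM in the RNAi libraries, against 5.49 and 5.25 FPKM in WT_PEG and 5.47, 5.67 and 4.75 FPKM in WT_control. Its wild-type groups overlapped, and the mean was 11.7-fold lower in RNAi_PEG than in WT_PEG. LOC_Os05g32460 had 0.476, 0.0644 and 0.42 FPKM in the RNAi libraries, against 2.84 and 3.49 FPKM in WT_PEG and 3.14, 3.16 and 3.83 FPKM in WT_control. RNAi replicate 2 was far below the other 2, at 3 reads against 28 and 31, and its exact Poisson 95% interval of 0.0133 to 0.188 FPKM, which covers counting error only, did not reach either.

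Below these came 4 genes at 0.168 to 0.253 of their WT_PEG level. LOC_Os06g38350 had 0.939, 1.58 and 0.999 FPKM in the RNAi libraries, against 7.47 and 6.52 FPKM in WT_PEG and 5.99, 6.53 and 6.70 FPKM in WT_control. It is a short locus of 333 bp, and only 12, 16 and 16 reads lay behind the RNAi values. LOC_Os05g12320 had 0.46, 0.505 and 0.406 FPKM in the RNAi libraries, against 2.29 and 2.19 FPKM in WT_PEG and 2.52, 2.69 and 2.62 FPKM in WT_control. LOC_Os01g02710 had 1.44, 2.31 and 1.58 FPKM in the RNAi libraries, against 8.60 and 8.04 FPKM in WT_PEG and 10.4, 9.99 and 10.8 FPKM in WT_control. In LOC_Os05g12320 and LOC_Os01g02710 the 3 groups were separate, with WT_PEG between the RNAi and untreated libraries. LOC_Os08g26350 had 1.37, 1.53 and 1.59 FPKM in the RNAi libraries, against 6.22 and 5.63 FPKM in WT_PEG and 6.25, 6.47 and 6.94 FPKM in WT_control.

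The last 4 of the 12 differed in how they stood under PEG. LOC_Os02g30110 was lower in WT_PEG than in untreated seedlings, with 0.799, 0.713 and 0.78 FPKM in the RNAi libraries, against 2.56 and 2.90 FPKM in WT_PEG and 3.12, 2.99 and 3.34 FPKM in WT_control. The other 3 were higher in WT_PEG than in WT_control by mean. LOC_Os03g03750 had 0.956, 1.21 and 1.37 FPKM in the RNAi libraries, against 4.06 and 3.91 FPKM in WT_PEG and 3.57, 3.20 and 3.59 FPKM in WT_control. LOC_Os06g36040 had 2.96, 2.87 and 3.14 FPKM in the RNAi libraries, against 8.84 and 10.5 FPKM in WT_PEG and 8.25, 7.74 and 8.78 FPKM in WT_control. LOC_Os03g54130 was the one well expressed gene of the 12, with 17.9, 16.5 and 17.5 FPKM in the RNAi libraries, against 51.4 and 57.7 FPKM in WT_PEG and 45.4, 44.4 and 49.6 FPKM in WT_control. The steepest differences were thus found in genes on both sides of a PEG ratio of 1.

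**Figure D3:**
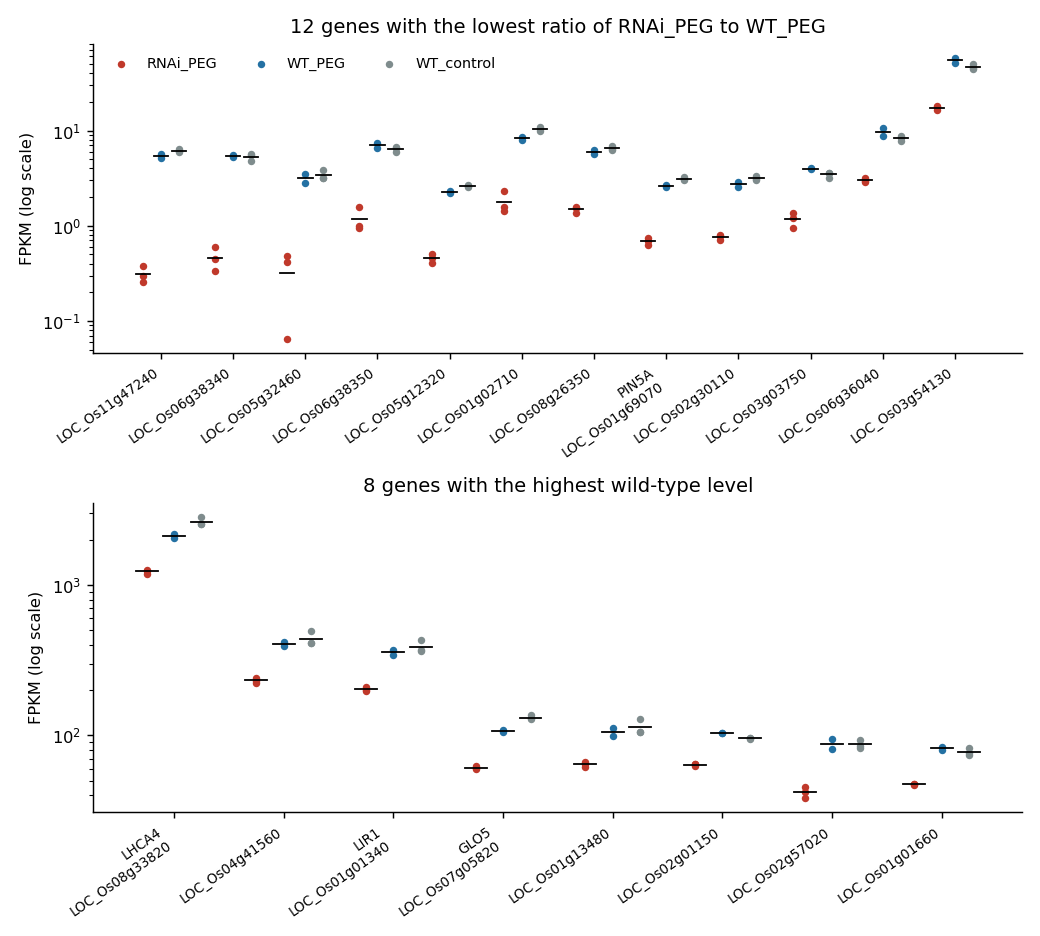
FPKM on a log scale in each library for the 12 genes with the lowest ratio of RNAi_PEG to WT_PEG (upper panel) and the 8 genes with the highest wild-type level (lower panel). Points are libraries, with RNAi_PEG left, WT_PEG centre and WT_control right for each gene, and bars are group means. RNAi replicate 2 of LOC_Os05g32460 lies lowest at 0.0644 FPKM, and LHCA4 lies highest.

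Most members were expressed at a moderate level. The mean over the 5 wild-type libraries had a median of 8.95 FPKM, against 8.27 FPKM in the mirrored set and 6.30 FPKM in the other PEG-steady genes. It was at least 100 FPKM in 5 genes, 20 to under 100 in 23, 5 to under 20 in 48 and under 5 in 36. The member nearest the floor of 2 FPKM was LOC_Os06g16330, with a lower wild-type mean of 2.09, and LOC_Os06g08340 was outside with 1.93. Level and ratio were only loosely related across the 112 genes, with a Spearman rho of 0.173. The points share the same 8 libraries, and the rho is a description. The 6 genes with a ratio of at most 0.25 had a median wild-type level of 5.59 FPKM, the 44 with a ratio up to 0.5 had 7.87 FPKM and the 62 above 0.5 had 11.4 FPKM.

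RNAi replicates lay close together in most members. The coefficient of variation over the 3 RNAi libraries had a median of 5.18%, against 4.25% in the other PEG-steady genes. It was smallest in LOC_Os07g40974, which had 15.8, 15.7 and 15.8 FPKM in the RNAi libraries, against 29.2 and 30.7 FPKM in WT_PEG and 34.3, 34.8 and 36.3 FPKM in WT_control. Here the spread of the RNAi libraries was 0.388% of their mean, and WT_PEG lay between the other groups. After LOC_Os05g32460, with 69.7%, the widest spreads were 31.9% in LOC_Os04g27980 and 30.2% in LOC_Os06g38350. LOC_Os04g27980 had 1.98, 2.13 and 1.10 FPKM in the RNAi libraries, against 4.64 and 4.34 FPKM in WT_PEG and 4.97, 5.17 and 4.29 FPKM in WT_control. Spread went with the size of the difference, with a median of 27.2% for ratios of at most 0.25, 7.11% up to 0.5 and 4.12% above 0.5, and the 6 genes with a ratio of at most 0.25 rested on 44 to 201 reads over the RNAi libraries.

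The threshold of 0.7 had genes directly on both sides. The members nearest to it were LOC_Os06g12649 and LOC_Os05g03750, each with the highest RNAi library at 0.699 of the lowest wild-type library, and LOC_Os02g52180, also at 0.699. LOC_Os02g52180 had 2.26, 2.36 and 2.37 FPKM in the RNAi libraries, against 3.39 and 3.49 FPKM in WT_PEG and 3.47, 3.94 and 3.79 FPKM in WT_control. The nearest genes outside were LOC_Os02g49470 at 0.7003, LOC_Os11g47370 at 0.701 and LOC_Os07g48770 at 0.702. LOC_Os11g47370 had 7.67, 7.86 and 7.90 FPKM in the RNAi libraries, against 11.3 and 11.6 FPKM in WT_PEG and 11.5, 11.6 and 11.6 FPKM in WT_control. The RNAi libraries of this excluded gene also lay below all of its wild-type libraries.

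The untreated libraries were not interchangeable within the group. WT_control replicate 3 was the highest untreated library in 70 of the 112 genes (62.5%), in 67.8% of the mirrored set and in 47.1% of the other PEG-steady genes. It exceeded both other untreated libraries by more than 15% in 24 members, and in 22 of these WT_PEG replicate 2 was above WT_PEG replicate 1. In the remaining 88 members WT_PEG replicate 2 was above replicate 1 in 39. The same pairing appeared in the other PEG-steady genes, in 565 of 731 genes (77.3%) with the high replicate 3 and in 40.3% of the rest. The lowest wild-type library, which the rule used, was WT_PEG replicate 1 in 40 members, WT_PEG replicate 2 in 27 and an untreated library in 45. These were 35.7%, 24.1% and 40.2% of the members, against 17.8%, 19.9% and 62.4% of the other PEG-steady genes. Without WT_control replicate 3 the rule gave 123 genes, 108 of them among the 112.

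Neighbouring loci occurred among the members in 5 pairs, which hold 10 genes or 8.93% of the group. The mirrored set had 3 such pairs, with 10.2% of its genes. A pair counts as neighbouring when its locus identifiers are at most 5 loci apart. The steepest pair was LOC_Os06g38340 and LOC_Os06g38350 on chromosome 6, with ratios of RNAi_PEG to WT_PEG of 0.0855 and 0.168. Next was LOC_Os01g02710, with 0.213, beside LOC_Os01g02700, with 0.349. LOC_Os01g02700 had 0.898, 0.786 and 0.772 FPKM in the RNAi libraries, against 2.24 and 2.45 FPKM in WT_PEG and 2.74, 2.82 and 2.79 FPKM in WT_control.

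The other 3 pairs had smaller differences. LOC_Os11g01439 had 13.5, 14.6 and 13.7 FPKM in the RNAi libraries, against 32.6 and 31.0 FPKM in WT_PEG and 37.9, 38.0 and 35.8 FPKM in WT_control. Its neighbour LOC_Os11g01450 had 5.48, 4.69 and 5.17 FPKM in the RNAi libraries, against 8.69 and 8.80 FPKM in WT_PEG and 8.29, 8.39 and 9.12 FPKM in WT_control. The first of these was lower in WT_PEG than in WT_control, while the second had overlapping wild-type groups. LOC_Os10g42780 had 13.2, 11.6 and 12.4 FPKM in the RNAi libraries, against 28.6 and 27.7 FPKM in WT_PEG and 28.8, 29.4 and 27.1 FPKM in WT_control. Its neighbour LOC_Os10g42770 had 5.73, 4.56 and 4.90 FPKM in the RNAi libraries, against 9.53 and 10.6 FPKM in WT_PEG and 9.84, 9.43 and 10.0 FPKM in WT_control. In both genes the wild-type groups overlapped. LOC_Os02g35630 had 11.5, 11.5 and 11.6 FPKM in the RNAi libraries, against 19.4 and 18.8 FPKM in WT_PEG and 17.7, 17.9 and 18.0 FPKM in WT_control. Its neighbour LOC_Os02g35620 had 5.86, 5.99 and 6.13 FPKM in the RNAi libraries, against 10.3 and 9.60 FPKM in WT_PEG and 11.6, 12.2 and 11.6 FPKM in WT_control. The pair had nearly equal ratios of RNAi_PEG to WT_PEG, 0.603 and 0.604, while the WT_PEG libraries lay above the untreated ones in LOC_Os02g35630 and below them in LOC_Os02g35620.

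Most measured loci beside the pairs lay above the limit of 0.7. Within 5 rows of the table on either side, 28 loci had at least 1 FPKM in WT_PEG, and their ratio of RNAi_PEG to WT_PEG had a median of 1.01. Of these, 26 lay between the limits of the rule and its mirror image, 1 was above and 1 was below. The one below was LOC_Os06g38450, beside the pair on chromosome 6, with 4.85 ± 0.315 FPKM in RNAi_PEG (SD, n = 3), 37.4 ± 0.39 FPKM in WT_PEG (SD, n = 2) and 14.8 ± 0.806 FPKM in WT_control (SD, n = 3). It was higher in WT_PEG than in WT_control and therefore not PEG-steady. LOC_Os11g01490, beside the pair on chromosome 11, was directly above the limit at 0.701, and limma called it lower in RNAi_PEG than in WT_PEG. The pair on chromosome 1 had only 2 such neighbours, at 0.76 and 0.978. Its other neighbours had under 1 FPKM in WT_PEG and were not counted. Of these, LOC_Os01g02600, LOC_Os01g02680, LOC_Os01g02730, LOC_Os01g02750 and LOC_Os01g02760 had ratios of 0.528, 0.592, 0.625, 0.739 and 0.676 on WT_PEG means of 0.0327 to 0.553 FPKM. The sources used here do not say whether reads were counted by strand, so neighbours that overlap on opposite strands may share reads, as may close copies.

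**Figure D4:**
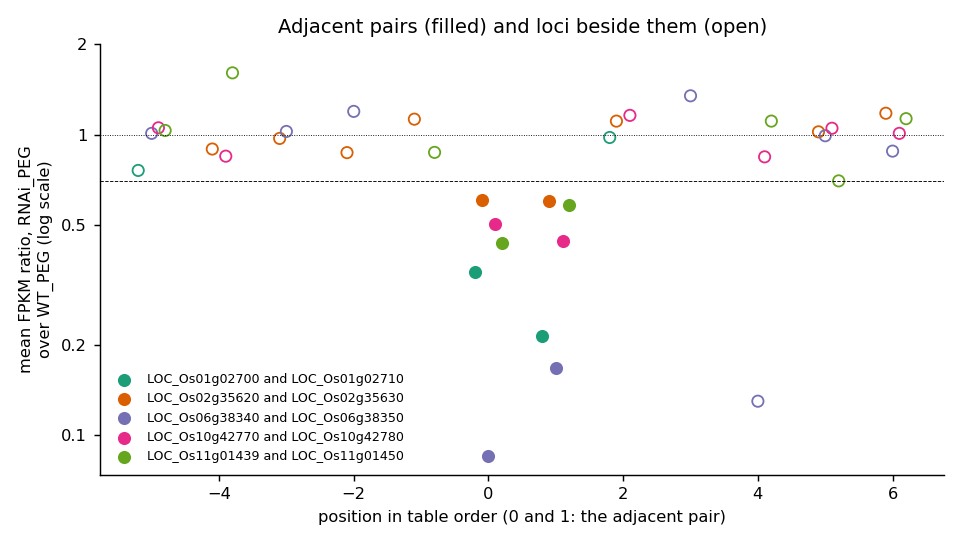
Ratio of mean FPKM in RNAi_PEG over WT_PEG, on a log scale, for the 5 neighbouring pairs (filled) and the loci within 5 rows of them that had at least 1 FPKM in WT_PEG (open), by position in the table. Colours mark the pairs, the dashed line is 0.7 and the dotted line is 1. The filled points lie below the dashed line and 26 of the 28 open points lie between 0.701 and 1.34, with LOC_Os06g38450 at 0.13 below them and LOC_Os11g01390 above them.

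The members were shorter than most PEG-steady genes. Length recovered from the FPKM steps was 3674 bp for GLO5 and 6540 bp for PIN5A, near the reference gene spans of 3570 and 6535 bp, introns included, but 1920 bp for LIR1 with a span of 1393 bp. It had a median of 2382 bp, against 1538 bp in the mirrored set and 3638.5 bp in the other PEG-steady genes. Loci under 1000 bp made up 11.6% of the members, 28.8% of the mirrored set and 6.15% of the other genes. Within the group the ratio of RNAi_PEG to WT_PEG had a Spearman rho of 0.272 with length, with the shorter genes tending to the lower ratios. These comparisons are descriptions over genes that share the same 8 libraries, and shorter genes also give fewer reads.

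The 112 genes lay on all 12 chromosomes. Chromosome 1 held 25 of them (22.3%), against 13.8% of the other PEG-steady genes. Chromosome 3 held 6 (5.36%), against 14.3%. Chromosomes 5 and 8 held 11 each (9.82%), against 8.25% and 6.68%. No test was made of these shares.

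**Figure D5:**
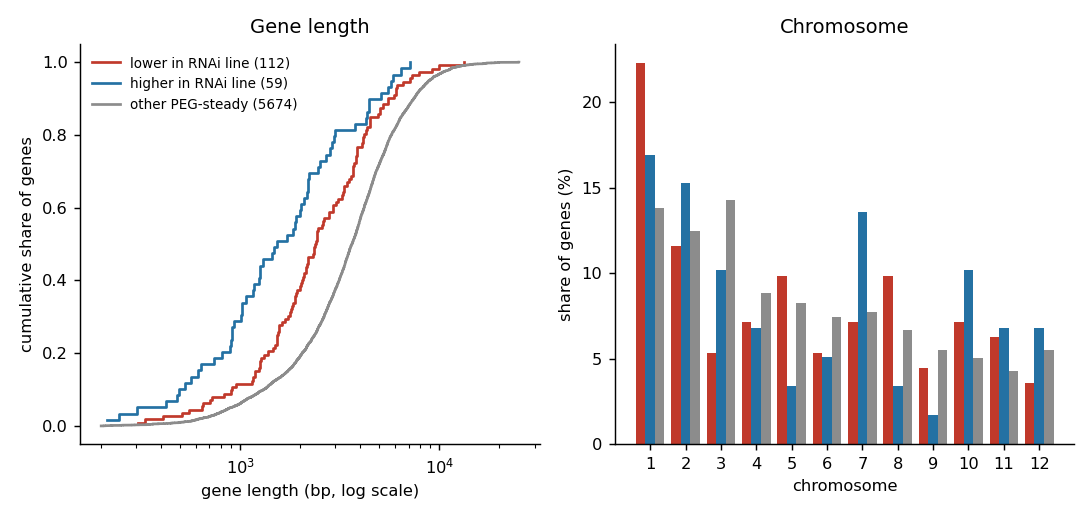
Left, cumulative share of genes by gene length on a log scale. Right, share of genes on each chromosome in percent. Red marks the 112 genes lower in the RNAi line, blue the 59 genes of the mirrored condition and grey the other 5674 PEG-steady genes. The red curve lies between the other curves over most of its range, and red is highest on chromosome 1 with 22.3%.

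Other leaf photosynthesis genes beside LHCA4 were lower in the RNAi line. Of 12 listed genes 10 passed the limma test as lower in RNAi_PEG than in WT_PEG and 0 as higher. Over all tested genes 16.4% passed as lower and 21.3% as higher. The list had a median log2 fold change of -0.57, beside 0.01 over all tested genes. LHCA4, for which the rule required a lower level, is counted in the 12 and in the 10. Only 4 of the 12 were PEG-steady, and LHCA4 was the one that met the whole rule. LHCA2, another gene of the photosystem I antenna, had 801, 744 and 818 FPKM in the RNAi libraries. It had 1127 and 1195 FPKM in WT_PEG and 1268, 1268 and 1479 FPKM in WT_control. Its highest RNAi library was 0.726 of its lowest wild-type library, just outside the threshold. LHCA3 (0.79) and CAB1R (0.879) were further out by the same measure, while RCA (0.616), LHCB3 (0.664), LHCB4 (0.685) and LHCA1 (0.693) were within it but outside the limits on the PEG ratio. RBCS2, a Rubisco small subunit gene, did not pass, with 2357 ± 109 FPKM in RNAi_PEG (SD, n = 3) and 2282 ± 83.8 FPKM in WT_PEG (SD, n = 2), and neither did CAB1R. The summed level of the list was 17967 to 19391 FPKM in the RNAi libraries, 24684 to 26858 FPKM in WT_PEG and 37228 to 43924 FPKM in WT_control. In whole seedlings, fewer leaf cells and less RNA per leaf cell cannot be told apart.

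Marker lists of other organs moved between the groups as well. The 3 seed storage genes GLUA1, GLUA2 and RAG2 passed as higher in RNAi_PEG than in WT_PEG, with a summed level of 22.9 to 25.5 FPKM in the RNAi libraries, 2.22 to 3.71 FPKM in WT_PEG and 2.34 to 2.54 FPKM in WT_control. The 6 root-preferential genes summed to 50.2 to 54.0 FPKM in the RNAi libraries, 63.7 to 64.5 FPKM in WT_PEG and 423 to 456 FPKM in WT_control. RCC3 made up most of the sum in the RNAi and WT_PEG libraries, with means of 42.0 and 53.6 FPKM. LSI1 had 5.24 and 5.76 FPKM there, and LSI2 had 4.30 and 4.56 FPKM. Of the 3 root genes tested 1, RCC3, passed as lower in RNAi_PEG than in WT_PEG, or 2 without WT_control replicate 3 or with scaling to total recovered reads, and NRT2.1 was listed at 0 in the RNAi and WT_PEG libraries. None of the seed or root markers was PEG-steady, so none could be among the 112. Their part in the values above was not tested.

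No listed gene of the machinery around SDG708 and RNAi was in the group. Only PEG-steady genes could meet the rule, and 112 of all 5845 did. With so few PEG-steady genes in these lists, 0 members is not read as a result. In the lists that follow, the share of all tested genes called in RNAi_PEG against WT_PEG, 21.3% higher and 16.4% lower, is the background. Of 9 tested histone methyltransferase and demethylase genes 5 were PEG-steady, 0 met the rule, and by limma 1 was higher and 0 lower in RNAi_PEG than in WT_PEG. The one higher was the demethylase gene JMJ706, at 5.02 ± 0.09 FPKM in RNAi_PEG (SD, n = 3) and 3.68 ± 0.22 FPKM in WT_PEG (SD, n = 2). SDG725 and SDG724, SET-domain genes of the same family, had 2.49 ± 0.06 and 2.31 ± 0.20 FPKM in RNAi_PEG (SD, n = 3), against 2.66 ± 0.11 and 2.36 ± 0.16 FPKM in WT_PEG (SD, n = 2). Of 14 genes of RNA silencing and DNA methylation 3 were higher (AGO1B, AGO18 and DDM1A) and 1 was lower (AGO4A), 2 were PEG-steady and 0 met the rule. Those counts were 1 and 0 without either WT_PEG replicate, and 1 and 2 with scaling to total recovered reads. Without WT_control replicate 1 or 2, or RNAi replicate 1 or 3, 0 were lower, and without WT_control replicate 3 there were 2. Of 6 reference genes 1, UBQ10, was higher and 0 were lower, with 2 lower under quantile normalization and 2 higher without RNAi replicate 3 or WT_control replicate 3.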

How the data were processed

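The authors deposited 1 table of FPKM per gene and library, with their group means, log2 fold changes and p-values for 2 comparisons. Per the submitters' processing notes, cutadapt, FastQC, HISAT2, SAMtools, DESeq2, featureCounts and deepTools were used. Their roles, the genome build, the annotation and any adjustment of the p-value are not given. Groups were taken from the titles. Columns named NIP were read as wild-type.

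Genes with at least 1 FPKM in at least 2 libraries entered limma 3.58.1 (R 4.3.3) on the log2(FPKM + 1) scale, in one model of 3 groups with 5 residual degrees of freedom and two-sided p-values adjusted by Benjamini-Hochberg, called under 0.05. This scale understates changes of low genes. Whole reads were recovered in 33817 rows within 0.03 reads, and 302 rows were at 0. The fit was also run on simulated reads with the same spread in every library. No simulated library stood apart as WT_control replicate 3 did, so that run does not measure the error of the calls here.

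The genes, 6 lists with 54 loci and alternatives were chosen with earlier results of these data known. Named are members with the 12 lowest ratios, 8 highest wild-type levels, a name in the lists or reference, a neighbouring member, or an extreme RNAi spread (3 each way), and 3 genes on each side of the threshold. LHCA2 and other listed genes were named after their values were seen. Locus identifiers do not occur in the reference (ASM3414082v1). By name and chromosome it holds LIR1, GLO5, PIN5A and 26 of the 54 listed loci, contradicts 1, which was dropped, and lacks 27.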

Additional observations from a re-analysis of the deposited data

How the results depend on the processing

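The number of genes follows the limits of the rule. It was 53 with a threshold of 0.6 and 231 with 0.8 in place of 0.7, 57 with wild-type means within about 0.9 of each other, 137 with a floor of 1 FPKM and 75 with a floor of 5 FPKM, against 112. With libraries scaled to total recovered reads 118 genes met the rule, of which 73 are among the 112. With quantile normalization it was 122, with 81 shared, and with equal medians 117, with 98 shared. Recovered reads were 101.4% to 103.3% of the FPKM denominators in RNAi_PEG, 97.33% and 98.33% in WT_PEG and 86.97% to 91.3% in WT_control, so the choice of total matters to which genes are steady. Leaving out 1 library gave 111 to 133 genes. An alternative chosen after seeing the data, with the lowest WT_PEG library in place of the lowest of 5, gave 136.

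In RNAi_PEG against WT_PEG, 7879 genes were called, 56.5% of them higher. Scaling to total recovered reads turned that share to 43.8% and quantile normalization to 47.5%. Leaving out 1 library gave 5135 (without WT_PEG replicate 2) to 9339 genes, and for the 112 genes 111 to 112 calls. Genes called lower numbered 3428, or 2204 without WT_PEG replicate 1 and 2119 without WT_PEG replicate 2. The leaf list, LHCA4 included, had 9 to 11 genes lower in every alternative. In this comparison the 35 named genes kept the direction of the log2 fold change and an adjusted p under 0.05 in all 560 values under alternatives. The named genes met the limit of 0.7 or lay directly beside it in the same libraries, so their choice largely set this outcome. The same holds for the calls of the 112 genes given here and below. These values concern the limma test and not the limit of 0.7, on which membership changed as given above. Scaling to total recovered reads moved the median log2 fold change of WT_PEG against WT_control to -0.10, against 0.02.

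With the replicate number as a block, 7714 genes were called in RNAi_PEG against WT_PEG, 15849 in WT_PEG against WT_control and 17213 in RNAi_PEG against WT_control, and 112 of the 112 passed. Deviations of same-numbered libraries correlated between -0.234 and 0.361, and those of differently numbered libraries between -0.403 and 0.332. Deviations within a group of 2 or 3 libraries sum to 0, so these values cannot tell whether same-numbered libraries share more than the number.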
